A study of Mus musculus with 16 samples.

Results

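The genes typical of differentiated surface colonocytes that were followed in 16 mice numbered 9 of 22396 gene symbols: *Guca2a*, *Guca2b*, *Slc15a1*, *Ceacam20*, *Clca4a*, *Prss30*, *Sectm1b*, *Phgr1* and *2010109I03Rik*. They were chosen by name from earlier views of the levels measured in these same mice, so their levels are given as a description. Of the 9, 6 stood in the list of 50 absorptive colonocyte genes that the study took from a single-cell reference. *Guca2a* and *Phgr1* stood in one of its progenitor lists instead, and *Guca2b* in none, so the label fits 6 of the 9 by that reference.

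RNA was sequenced from EpCAM+ cells, which are epithelial cells by that surface protein, sorted from the distal colonic mucosa of 8-week-old mice, with 1 library per mouse. Dextran sulfate sodium (DSS), which injures the colonic epithelium, was given in drinking water at 3% for 6 days by the labels, and the labels put dissection at day 12 for every mouse. The methods give a higher DSS concentration, and day 0 for uninjured mice. There were 3 control (Tnfr2-f/f) and 4 knockout-labelled (Vil1::Cre;Tnfr2-f/f) mice after DSS, and 4 control and 5 knockout-labelled mice given water. All 16 carried floxed *Tnfrsf1b*, the gene of TNFR2, and in the knockout-labelled mice Cre was driven by the villin promoter, which is active in intestinal epithelium. For DSS-treated mice only the injured regions of the colon were processed.

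*Tnfrsf1b* was checked first. It was listed at 22.2, 13.9 and 13.3 TPM (transcripts scaled by length and library total) in the DSS-treated controls, and at 27.0, 13.5, 15.2 and 17.7 TPM in the DSS-treated knockout-labelled mice. In water it stood at 13.5, 15.4, 11.1 and 15.5 TPM in controls, and at 11.4, 10.1, 9.23, 14.8 and 13.3 TPM in knockout-labelled mice. The genotypes overlapped in both treatments (log2 difference 0.14 ± 0.27 (SE) after DSS and -0.23 ± 0.16 (SE) in water; adjusted p = 0.9997 and 0.865, limma), so the mice are called knockout-labelled throughout. The deposited TPM do not show whether a transcript lacked the floxed part. The paper itself reports, for mice of this genotype, less TNFR2 protein on EpCAM+ cells by flow cytometry. It also reports loss of TNFR2 by qPCR of sorted EpCAM+ cells.

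The 7 DSS-treated mice were females from 2 cages, and those given water were housed as 4 males together and 5 females together. No cage held both treatments, so treatment and cage cannot be told apart. The tables of the treatments were normalized separately, so no test was run between them, and levels across treatments are given as TPM after 1 median-of-ratios rescaling of all 16 mice, called rescaled TPM. As deposited, the median of all genes stood 0.32 (log2) higher in DSS-treated mice. RNA of other cells differed by treatment. The summed TPM of 14 leukocyte markers ranged from 1411 to 9188 in water-treated controls and from 4159 to 14509.5 in water-treated knockout-labelled mice. After DSS it ranged from 20.8 to 101 in controls and from 34.6 to 484 in knockout-labelled mice, and *Cd8a* was listed at 0 in all 7. Among 11 stromal and endothelial markers, none of them at 0 throughout a group, the sum ranged from 228 to 785 TPM in water and from 119 to 535 TPM after DSS. The part of these cells in the results was not tested. In sorted bulk cells, fewer cells of a type and less RNA per cell cannot be told apart.

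Colonocytes are born in the crypt, stop dividing as they move up, and reach the surface as absorptive cells that carry a brush border of microvilli. At the surface they take up sodium, chloride, short peptides and water, and they release guanylin peptides into the lumen, which bind the receptor guanylate cyclase C (Gucy2c) on neighbouring cells and raise cyclic GMP. After injury, the surface is rebuilt from cells of the crypt.

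The 250 bases before the start site are shown for *Guca2a*, *Slc15a1*, *Sectm1b* and *Guca2b*. The first 3 had lower levels, after the rescaling, in every DSS-treated mouse than in every water-treated mouse. In TPM as deposited this held for *Slc15a1* alone. *Guca2b*, the neighbour of *Guca2a*, did not share that pattern. The sequences are from RefSeq on GRCm38.p6, 5′ to 3′ on the strand of the gene. Capitals mark 3 strings of letters, read on either strand. The first, CAAAG, is a short site of HNF4 factors. The second, CCACCC, is a site of KLF factors, and the third, AGATAA, is one of the sites bound by GATA factors.
Guca2a, chr4:119637482-119637731, plus strand: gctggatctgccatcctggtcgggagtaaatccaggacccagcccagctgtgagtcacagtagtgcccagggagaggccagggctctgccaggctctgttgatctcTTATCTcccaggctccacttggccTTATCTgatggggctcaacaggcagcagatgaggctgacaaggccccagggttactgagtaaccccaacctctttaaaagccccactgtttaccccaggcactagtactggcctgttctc
Guca2b, chr4:119658946-119659195, minus strand: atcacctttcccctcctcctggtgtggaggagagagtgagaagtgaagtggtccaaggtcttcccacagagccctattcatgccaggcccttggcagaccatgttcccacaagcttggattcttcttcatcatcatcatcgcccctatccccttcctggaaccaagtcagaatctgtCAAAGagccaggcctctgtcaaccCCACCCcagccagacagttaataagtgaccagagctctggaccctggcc
Slc15a1, chr14:121505255-121505504, minus strand: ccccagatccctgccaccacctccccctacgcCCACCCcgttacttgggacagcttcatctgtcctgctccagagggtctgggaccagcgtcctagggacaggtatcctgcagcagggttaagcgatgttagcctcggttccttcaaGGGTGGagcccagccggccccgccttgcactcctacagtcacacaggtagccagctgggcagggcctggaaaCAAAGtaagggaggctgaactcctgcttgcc
Sectm1b, chr11:121063570-121063819, minus strand: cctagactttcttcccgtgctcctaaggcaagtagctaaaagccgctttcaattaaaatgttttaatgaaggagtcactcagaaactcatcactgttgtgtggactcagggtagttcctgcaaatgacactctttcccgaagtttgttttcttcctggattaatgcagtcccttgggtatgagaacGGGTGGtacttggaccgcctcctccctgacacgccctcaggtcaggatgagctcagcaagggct

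Promoters of 7 of the 9 genes were in the RefSeq table (not *Clca4a* and *2010109I03Rik*). Searched on both strands of these 250 bases, CAAAG stood in 4 of the 7 (*Phgr1*, *Guca2b*, *Ceacam20* and *Slc15a1*) and in 48.6% of 32851 promoters. CCACCC stood in 5 of the 7 (*Phgr1*, *Guca2b*, *Ceacam20*, *Sectm1b* and *Slc15a1*) and in 28.1% of all promoters. AGATAA stood in *Guca2a* alone, where its reverse complement began 144 and 120 bases before the start site, and in 9.99% of all promoters. TATAAA (the TATA box) stood in none of the 7 and in 12.4% of all promoters, and the CDX2 site TTTATG in none and in 10.8%. The longer HNF4 site CAAAGTCCA, which contains the short one, stood in none and in 0.384%. The 3 genes shown for their lower level after DSS held no one of these letter strings in common.

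*Guca2a*, which encodes guanylin, lay at chr4:119637704-119639471 on the plus strand (GRCm38, GENCODE M21) with 3 exons, and was the highest of the 9 genes in all 4 groups. It stood at 1059, 863, 1343 and 823 rescaled TPM in water-treated controls, and at 990.4, 744, 803, 973 and 1059 in water-treated knockout-labelled mice. In DSS-treated mice it stood at 604, 349 and 717 rescaled TPM in controls and at 311, 552, 336 and 255 in knockout-labelled mice. On this scale every DSS-treated mouse was below every water-treated mouse, while the genotypes overlapped within each treatment. In TPM as deposited the treatments overlapped, with DSS-treated control 3 at 890 and water-treated knockout-labelled mouse 2 at 679. They overlapped by percentile rank too. The log2 difference between DSS and water was -0.91 in controls and -1.38 in knockout-labelled mice, beside group SDs of 0.22 to 0.54. Even so *Guca2a* stayed between the 99.2 and 99.8 percentile of all genes in every mouse.

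*Guca2b* encodes uroguanylin, the second ligand of the same receptor. It lay 17135 bases from *Guca2a*, at chr4:119656607-119658954 on the minus strand, with 3 exons in the listed transcript. It stood at 14.3, 15.7, 17.9 and 21.96 rescaled TPM in water-treated controls, and at 30.97, 29.3, 29.5, 17.8 and 17.2 in water-treated knockout-labelled mice. The DSS-treated mice had it at 33.0, 24.8 and 24.7 rescaled TPM in controls and at 26.8, 30.7, 15.8 and 19.0 in knockout-labelled mice. Among controls every DSS-treated mouse was above every water-treated mouse (log2 difference 0.63), whereas the knockout-labelled groups overlapped (-0.11). Of the 31-base stretches of the listed transcript, 30.1% were absent from the gene's other transcript, so reads may have been divided between them.

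The ratio of both guanylins within a mouse needs no scaling between mice. *Guca2a* stood 74.1, 54.9, 75.03 and 37.5 times above *Guca2b* in water-treated controls, and 32.0, 25.4, 27.2, 54.5 and 61.4 times above it in water-treated knockout-labelled mice. After DSS the ratio of *Guca2a* to *Guca2b* was 18.3, 14.1 and 29.0 in controls and 11.6, 18.0, 21.3 and 13.4 in knockout-labelled mice. Within each genotype label every ratio after DSS was below every ratio in water, and across labels 1 DSS-treated control, at 29.0, lay within the range of the water-treated knockout-labelled mice.

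All 12 other genes listed for the guanylin pathway, from the receptor to the ion transporters it acts on, were in the tables, and 10 reached a mean of 1 TPM. Among controls 2 of these 10 were below water without overlap, beside 14.2% of all genes, and 2 above, beside 10.6%. Their median log2 difference was 0.17 (0.01 over all genes). Among knockout-labelled mice 2 were below, beside 18.1% of all genes, and 4 above, beside 17.4%. Whether the counts of this or the later lists depart from these shares was not tested. *Slc26a3*, the chloride/bicarbonate exchanger of the surface, had medians of 125 rescaled TPM in water-treated controls and 70.4 in DSS-treated controls, without overlap. *Slc12a2*, the basolateral sodium-potassium-chloride carrier, went the other way, with medians of 57.4 and 128. The scaffold *Slc9a3r1*, which holds transporters in the brush border, had medians of 78.4 and 41.7, and the potassium channel subunit *Kcne3* had overlapping groups with medians of 168 and 174. The listed transcript of the receptor *Gucy2c* was at 0 in 3 of the 4 groups and reached at most 1.30 rescaled TPM in water-treated knockout-labelled mice, so the receptor could not be followed.

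*Slc15a1* encodes PEPT1, which carries di- and tripeptides across the brush border with protons. It lay at chr14:121459621-121505252 on the minus strand, with 23 exons in the listed transcript, and was the lowest of the 9 genes in every group. It stood at 11.6, 9.10, 26.7 and 18.0 rescaled TPM in water-treated controls, and at 19.0, 15.5, 10.2, 16.9 and 11.4 in water-treated knockout-labelled mice. After DSS it stood at 3.57, 1.60 and 3.95 rescaled TPM in controls and at 2.31, 3.88, 2.02 and 1.66 in knockout-labelled mice. Every DSS-treated mouse was below every water-treated mouse, also in TPM as deposited and by percentile rank. The log2 difference was -2.05 in controls and -2.17 in knockout-labelled mice, which is 4.14 and 4.51 times lower on the log2(value + 1) scale, beside group SDs of 0.35 to 0.65.

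Of 16 other genes for digestion and uptake of peptides and amino acids, 11 reached a mean of 1 TPM among controls. Of these, 3 were below water without overlap, beside 14.2% of all genes, and none (0) above, beside 10.6%. Their median log2 difference was -0.23. Among knockout-labelled mice 3 were below, beside 18.1% of all genes, and 1 above, beside 17.4%. *Mep1a*, a brush border metalloprotease, had medians of 44.6 rescaled TPM in water-treated and 16.4 in DSS-treated controls. Its partner *Mep1b* overlapped, with 25.8 and 21.02. In controls *Slc3a2*, the heavy chain of amino acid exchangers, was at 43.4 and 2.41 with overlap, and the exchanger light chain *Slc7a7* was at 18.9 and 18.5. In knockout-labelled mice *Slc3a2* had medians of 54.1 in water and 2.83 after DSS, without overlap. *Mep1a*, *Mep1b* and *Slc7a7* overlapped there.

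*Ceacam20*, an adhesion molecule of the microvilli, lay at chr7:19965412-19991104 on the plus strand, with 12 exons. It stood at 18.7, 20.7, 34.2 and 28.6 rescaled TPM in water-treated controls, and at 29.4, 19.8, 17.0, 25.6 and 28.5 in water-treated knockout-labelled mice. In DSS-treated mice it stood at 19.7, 13.7 and 15.4 rescaled TPM in controls and at 14.3, 13.5, 11.7 and 11.7 in knockout-labelled mice. The knockout-labelled groups did not overlap (log2 difference -0.84), and the control groups did (-0.60), since 1 DSS-treated control at 19.7 exceeded 1 water-treated control at 18.7. In TPM as deposited the knockout-labelled groups overlapped too, with the highest DSS-treated mouse at 16.98 and the lowest water-treated mouse at 15.99.

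*Ptprh*, the phosphatase that pairs with *Ceacam20* in microvilli, had overlapping control groups with medians of 11.8 rescaled TPM in water and 9.14 after DSS. Of 9 relatives and partners of *Ceacam20*, 6 reached a mean of 1 TPM among controls, with 2 below water without overlap and 1 above. These counts stood beside 14.2% and 10.6% of all genes. They were the same among knockout-labelled mice, beside 18.1% and 17.4% of all genes. *Syk*, a kinase that acts with *Ceacam20*, was at 20.8 in water and 10.7 after DSS, and the kinase *Src* overlapped at 19.8 and 15.7. The relative *Ceacam10* went the other way in controls without overlap, with medians of 65.9 and 159, but overlapped in knockout-labelled mice (110 and 160). *Ceacam1* overlapped among controls, at 11.9 and 62.1, and was above water without overlap in knockout-labelled mice (3.50 and 76.1).

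*Clca4a*, of the calcium-activated chloride channel regulator family, lay at chr3:144952480-144975045 on the minus strand with 14 exons, between *Clca4b* and *Clca1*. It stood at 34.6, 25.4, 64.7 and 36.8 rescaled TPM in water-treated controls, and at 30.02, 30.5, 27.9, 52.6 and 26.8 in water-treated knockout-labelled mice. The DSS-treated mice had it at 61.2, 39.5 and 32.6 rescaled TPM in controls and at 33.4, 42.8, 48.3 and 48.2 in knockout-labelled mice. The groups overlapped under both genotype labels (log2 difference 0.17 and 0.39).

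The value of *Clca4a* is uncertain, because 52.5% of its 31-base stretches also stood in other genes, most of them in *Clca4b*. *Clca4b* ranged from 0.526 to 6.02 rescaled TPM in water and from 16.2 to 103 after DSS. Of the 5 relatives of *Clca4a* compared among controls, 4 were above water without overlap and 1, the goblet cell gene *Clca1*, was below (507 and 114 rescaled TPM). Of all genes, 10.6% were above and 14.2% below among controls. *Clca3b* was at 141 and 387.

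**Figure D1:**
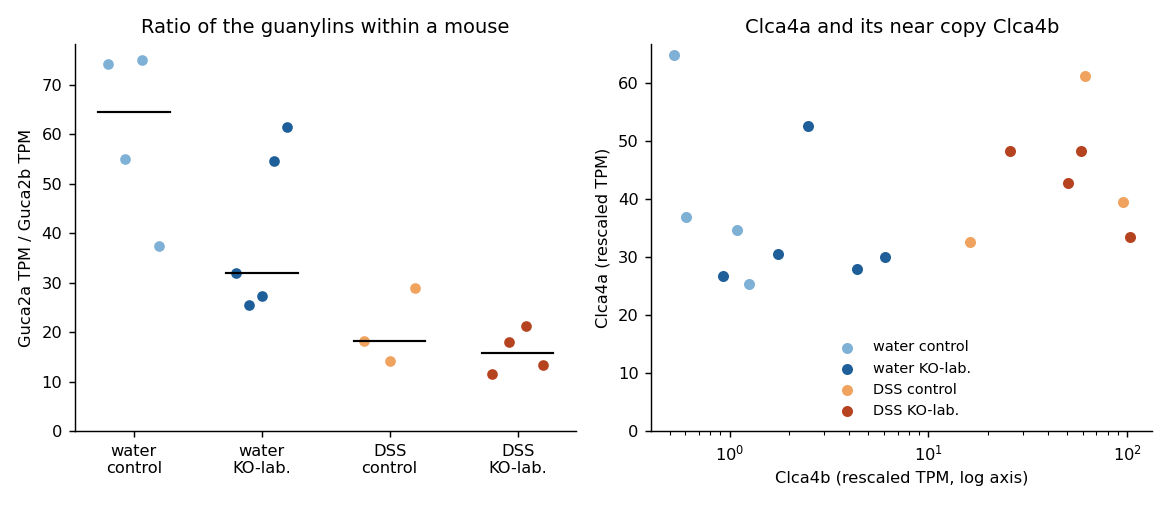
Left, TPM of *Guca2a* divided by that of *Guca2b* in each mouse (points) with group medians (lines). Ratios lay between 25.4 and 75.03 in water and between 11.6 and 29.0 after DSS. Right, rescaled TPM of *Clca4a* against that of *Clca4b* (log axis) in each mouse. *Clca4b* was at most 6.02 in water and at least 16.2 after DSS, while *Clca4a* had overlapping groups.

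*Prss30* encodes a serine protease of the epithelial surface that can activate the epithelial sodium channel (ENaC). It lay at chr17:23972126-23980566 on the minus strand, with 6 exons in the listed transcript. It stood at 49.8, 74.1, 106 and 69.9 rescaled TPM in water-treated controls, and at 92.9, 63.0, 45.6, 114 and 50.1 in water-treated knockout-labelled mice. After DSS it stood at 38.0, 27.1 and 59.8 rescaled TPM in controls and at 22.2, 27.7, 18.8 and 24.3 in knockout-labelled mice. The knockout-labelled groups did not overlap (log2 difference -1.54), and the control groups did (-0.85) through the DSS-treated control at 59.8. Only 0.896% of the 31-base stretches of the listed transcript were found in none of the 6 others of this gene, so its level depends on how reads were divided among 7 transcripts.

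Among 11 other surface proteases, their inhibitors and ENaC subunits, 9 reached a mean of 1 TPM among controls, 0 were below water without overlap and 2 above. Among knockout-labelled mice 2 were below and 0 above. Of all genes, 14.2% were below and 10.6% above among controls, and 18.1% and 17.4% among knockout-labelled mice. The protease *Prss32* had medians of 255 and 206 rescaled TPM in water-treated and DSS-treated controls, with overlap, and of 297 and 201 in knockout-labelled mice, without overlap. *Tmprss2* had 143 and 205 in controls without overlap, and 160.3 and 179.6 in knockout-labelled mice with overlap. In controls *St14* (matriptase) had 74.3 and 55.3 with overlap, and its inhibitor *Spint1* 67.6 and 65.2 with overlap.

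*Sectm1b*, which encodes a secreted and membrane protein whose relative in humans binds CD7, lay at chr11:121053458-121063569 on the minus strand, between *Cd7* and *Sectm1a*. Its 4 listed transcripts, of 7 of this gene in GENCODE M21, were summed, so reads given to the others are left out. It stood at 47.5, 45.4, 89.3 and 72.3 rescaled TPM in water-treated controls, and at 69.8, 60.1, 36.7, 71.0 and 58.4 in water-treated knockout-labelled mice. In DSS-treated mice it stood at 35.6, 28.9 and 36.0 rescaled TPM in controls and at 21.9, 35.4, 18.8 and 22.6 in knockout-labelled mice. Every DSS-treated mouse was below every water-treated mouse, the nearest pair being 36.0 and 36.7, and the log2 difference was -0.85 in controls and -1.23 in knockout-labelled mice. The neighbour *Sectm1a* was low, with group medians between 0.769 and 2.64 rescaled TPM.

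*Phgr1*, named for its runs of proline, histidine and glycine, lay at chr2:118772769-118778165 on the plus strand, with 4 exons in the listed transcript. It stood at 158, 0.00547, 107 and 124 rescaled TPM in water-treated controls, and at 349, 119, 281, 452 and 194 in water-treated knockout-labelled mice. The DSS-treated mice had it at 135, 91.5 and 261 rescaled TPM in controls and at 0.000169, 30.1, 28.1 and 35.1 in knockout-labelled mice. It was near 0 in 1 water-treated control and 1 DSS-treated knockout-labelled mouse. Only 6.64% of the 31-base stretches of this transcript were absent from the gene's other transcript, which was not listed, so its value may not stand for the gene.

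The log2 difference of *Phgr1* between DSS and water was 1.96 in controls and 0.21 without the near-0 water-treated control. In knockout-labelled mice it was -4.24, and -2.99 without the near-0 DSS-treated mouse. Its within-group SD reached 3.51.

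*2010109I03Rik* lay at chr15:74876987-74897021 on the minus strand, with 3 exons, between *Cyp11b2* and *Ly6e*. It stood at 53.2, 24.3, 92.5 and 45.6 rescaled TPM in water-treated controls, and at 66.9, 61.7, 47.7, 88.3 and 35.5 in water-treated knockout-labelled mice. After DSS it stood at 51.3, 30.7 and 30.1 rescaled TPM in controls and at 35.4, 36.6, 36.2 and 33.7 in knockout-labelled mice. Groups overlapped under both genotype labels (log2 difference -0.41 and -0.68). The 4 DSS-treated knockout-labelled mice were close together (SD 0.052), while the other groups spread over an SD of 0.43 to 0.78. Only 4.91% of the 31-base stretches of the listed transcript were absent from the gene's other transcript, which was not listed, so these values too may not stand for the gene.

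**Figure D2:**
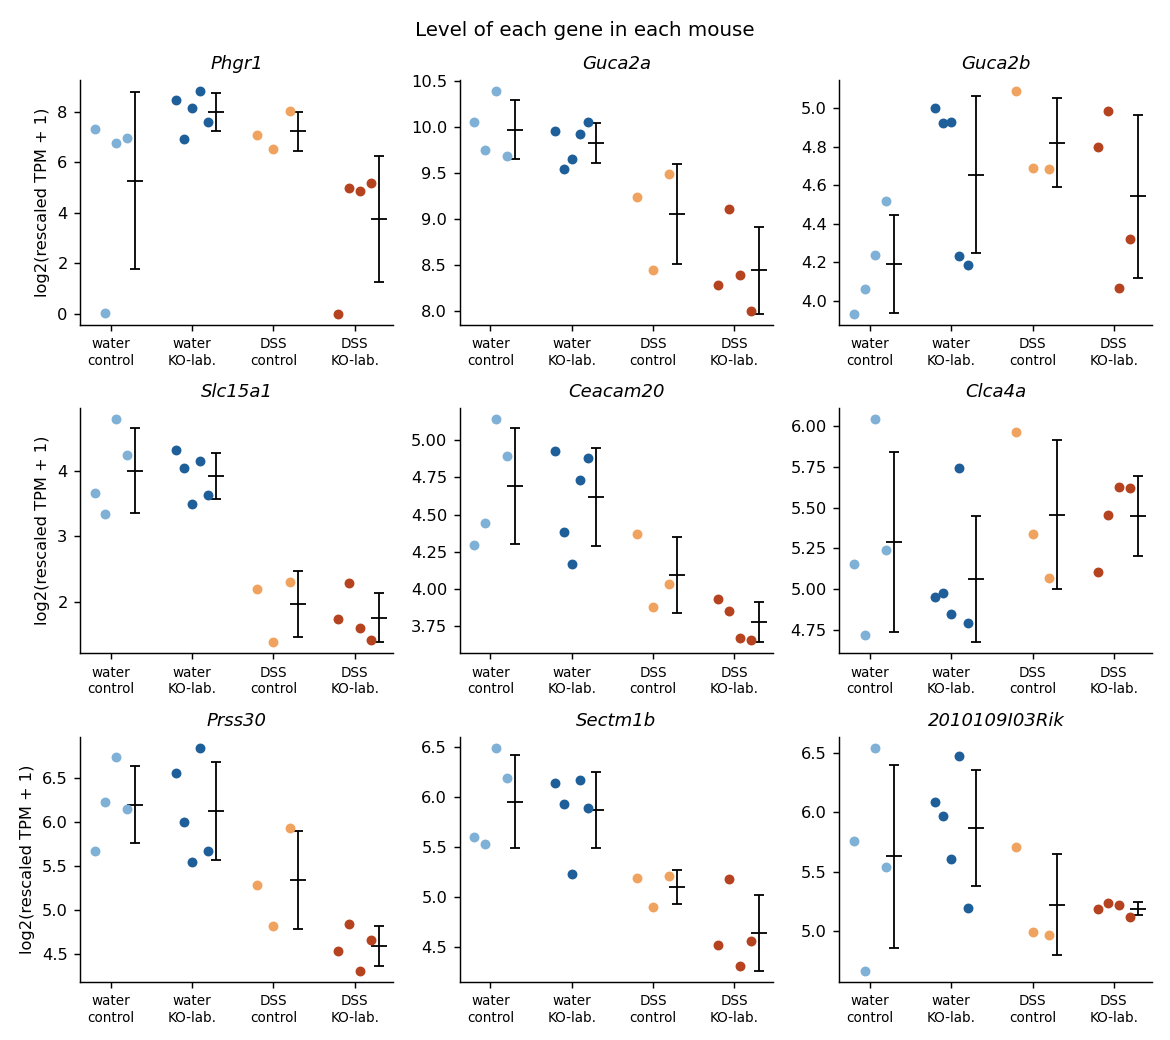
Level of each of the 9 genes in each of the 16 mice, as log2(rescaled TPM + 1), with the mean and SD of the group beside the points. Vertical axes differ between panels and, but for *Phgr1*, do not begin at 0. On this scale *Guca2a*, *Slc15a1* and *Sectm1b* have all 7 DSS-treated mice below all 9 water-treated mice. In TPM as deposited only *Slc15a1* does.

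Counted together, 3 of the 9 genes (*Guca2a*, *Slc15a1* and *Sectm1b*) were below water without overlap among controls, beside 14.2% of 11241 genes, and 1 (*Guca2b*) was above, beside 10.6%. Among knockout-labelled mice 6 were below (the same 3 with *Phgr1*, *Ceacam20* and *Prss30*), beside 18.1% of 11138 genes, and 0 above, beside 17.4%. Over all mice 3 were below, beside 7.04%. In TPM as deposited *Slc15a1* alone stayed below over all mice, beside 4.16% of genes, and with scaling to 12 epithelial genes *Guca2a* and *Slc15a1* did, beside 6.51%. Among knockout-labelled mice 4 stayed below in TPM as deposited (*Phgr1*, *Guca2a*, *Slc15a1* and *Prss30*), beside 10.1% of genes. With epithelial scaling 5 did (the same 6 without *Sectm1b*), beside 14.7%, and by percentile rank 4 did (*Phgr1*, *Slc15a1*, *Ceacam20* and *Prss30*), beside 13.7%. The genes were picked with these levels known, so the counts say nothing about how often such genes would be found.

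The median log2 difference over the 9 genes was -0.60 in controls and -1.23 in knockout-labelled mice, beside 0.01 and -0.0046 over all genes. In TPM as deposited it was -0.26 and -0.88, beside 0.32 and 0.31 over all genes. The difference was below 0 for 6 of the 9 genes in controls and for 8 in knockout-labelled mice. Whether it differed between the genotype labels was not tested.

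**Figure D3:**
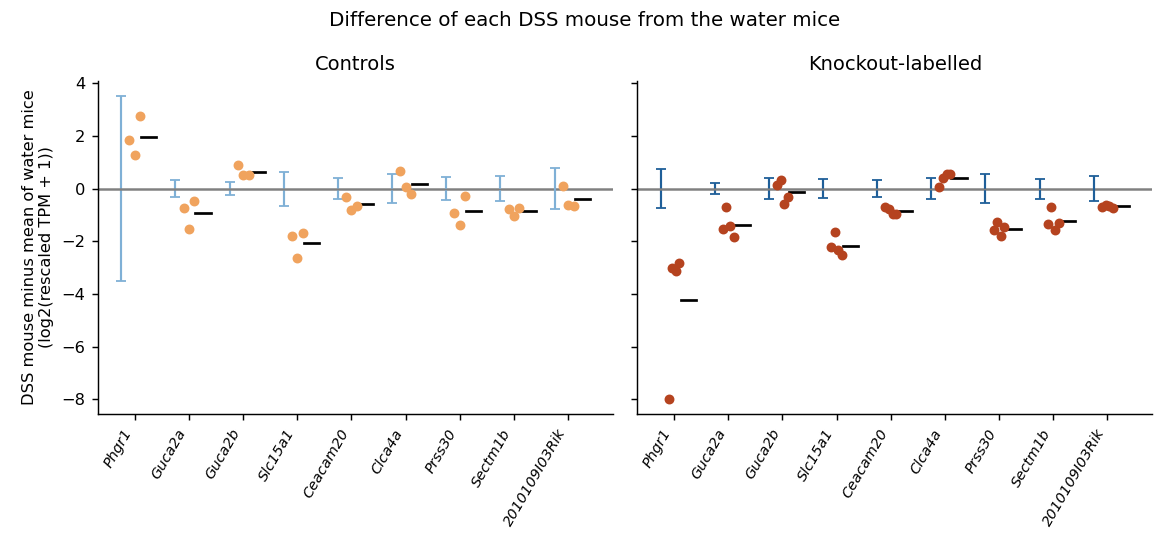
Each DSS-treated mouse (points) minus the mean of the water-treated mice with the same genotype label, in log2(rescaled TPM + 1), with the mean over DSS-treated mice (black) and 1 SD of the water-treated mice on each side of 0 (bars). The mean was lowest for *Slc15a1* in controls (-2.05) and for *Phgr1* in knockout-labelled mice (-4.24).

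The 50 absorptive colonocyte genes, which include 6 of the 9, were read in the same way. Among controls 19 of 49 compared were below water without overlap and 1 above, with a median log2 difference of -0.73. Among knockout-labelled mice 29 were below and 2 above, with a median of -0.97. Shares over all genes were 14.2% below and 10.6% above among controls, and 18.1% and 17.4% among knockout-labelled mice. *Lypd8*, a secreted protein that keeps flagellated bacteria from the surface, had medians of 3503 rescaled TPM in water-treated and 2780 in DSS-treated controls, with overlap. The acute-phase protein gene *Saa1* (809 and 514) and the carbonic anhydrase gene *Car1* (491 and 317) overlapped too, and *Sprr2a3*, a cornified-envelope family gene, did not (447 and 265). In knockout-labelled mice *Lypd8* (4340 and 2240), *Saa1* (738 and 291) and *Sprr2a3* (578 and 226) were below water without overlap. *Car1* (540 and 387) overlapped there too.

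Regulators of colonocyte differentiation were mixed. Of 12 compared among controls, 4 were below water without overlap and 2 above, with a median log2 difference of -0.41. Among knockout-labelled mice 5 were below and 2 above, with a median of -0.30. The shares of all genes were 14.2% below and 10.6% above among controls, and 18.1% and 17.4% among knockout-labelled mice. *Klf4*, which drives terminal differentiation, had medians of 318 rescaled TPM in water-treated and 150.4 in DSS-treated controls, without overlap. *Klf5*, which is active in dividing crypt cells, had 76.8 and 136, without overlap in the other direction. *Elf3* (243 and 129) and *Cdx1* (127 and 111) overlapped in controls. In knockout-labelled mice *Elf3* was below water without overlap (205 and 139), and *Cdx1* overlapped (137 and 118).

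Other cells of the epithelium were read from their own lists. Of 13 crypt and proliferation genes compared among controls, 1 was below water and 3 above without overlap, with a median log2 difference of 0.34, and *Mki67*, a marker of dividing cells, had medians of 21.01 and 42.6 rescaled TPM. Among knockout-labelled mice 0 were below and 6 above, with a median of 0.49. Shares over all genes were 14.2% below and 10.6% above among controls, and 18.1% and 17.4% among knockout-labelled mice. In controls *Birc5* (28.6 and 43.0), *Smoc2* (19.8 and 42.3) and *Pcna* (80.3 and 86.0) overlapped. In knockout-labelled mice *Birc5* and *Smoc2* were above water without overlap, and *Pcna* overlapped. Of 10 goblet cell genes 2 were below water in controls (median -1.06) and 9 in knockout-labelled mice (median -2.08). *Tff3* had medians of 965 and 365 rescaled TPM in water-treated and DSS-treated controls, *Zg16* 1455 and 699.7, and *Spink4* 1211 and 634, all with overlap, and *Agr2* was at 1095 and 1473 without overlap. In knockout-labelled mice *Tff3*, *Zg16* and *Spink4* were below water without overlap, and *Agr2* overlapped.

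The epithelial markers differed in direction from gene to gene. *Epcam* had medians of 662 rescaled TPM in water-treated and 816 in DSS-treated controls, with a narrow overlap (highest in water 780.7, lowest after DSS 779.5). The keratins *Krt8* (2458 and 1491) and *Krt18* (648 and 421) and the lectin *Lgals4* (1927 and 1278) overlapped between these groups too. In knockout-labelled mice *Krt8* (2455 and 1495) and *Lgals4* (1981 and 1252) were below water without overlap and *Epcam* (679.6 and 777) above. Of the 12 epithelial genes, 0 were below water and 1 above in controls, and 5 below and 3 above in knockout-labelled mice. The shares over all genes were 14.2%, 10.6%, 18.1% and 17.4% in the same order. The 12 genes had a median log2 difference of -0.27 in controls and -0.31 in knockout-labelled mice. Among 5 small intestinal genes compared, *Fabp2* overlapped (85.1 and 159) and *Rbp2* did not (34.7 and 16.9), and *Apoa4* and *Defa24* were listed at 0 in all 16 mice.

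Leukocyte genes had the lowest median of the lists. Of 9 compared among controls, 7 were below water without overlap, with a median log2 difference of -4.01, as were all 8 compared among knockout-labelled mice, with a median of -4.48. The shares of all genes below water were 14.2% among controls and 18.1% among knockout-labelled mice. *Jchain* had medians of 4206 and 6.48 rescaled TPM in water-treated and DSS-treated controls, *Lyz2* 861 and 23.9, *Csf1r* 128 and 1.65, and *Cd79a* 34.2 and 0.599. Of 10 stromal genes 5 were below water without overlap in controls (median -1.25) and 0 in knockout-labelled mice (median -0.57). In controls *Dcn* was at 367 and 61.0 rescaled TPM and *Col1a2* at 57.0 and 17.0, without overlap. *Col3a1* (133 and 45.6) and *Lum* (41.1 and 7.71) overlapped.

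**Figure D4:**
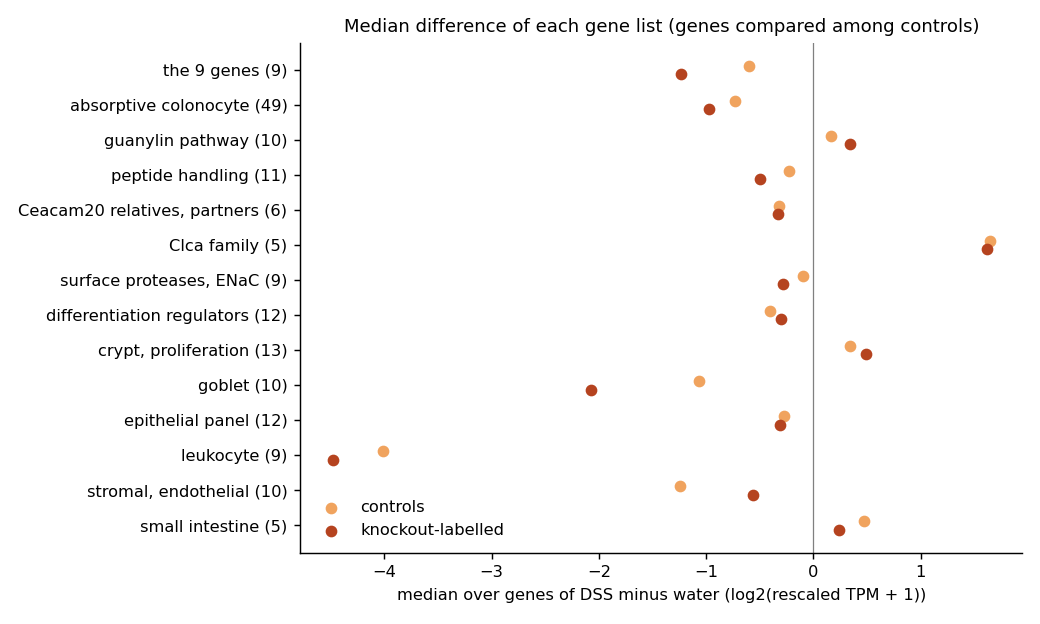
Median over the genes of each list of the log2 difference between DSS and water, in controls and in knockout-labelled mice, with the number of genes compared among controls in parentheses. The 9 genes lie at -0.60 and -1.23, the goblet cell list at -1.06 and -2.08, and the leukocyte list at -4.01 and -4.48.

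Whether TNFR2 status went with the level of the 9 genes after DSS was tested within the DSS table, by limma on log2(TPM + 1) with Benjamini-Hochberg adjustment over all 10899 genes. None of the 9 (0) passed an adjusted p of 0.05, beside 0.00918% of all genes (1 gene, *Tra2a*, named after its value was seen). At an unadjusted p of 0.05 there were 2, beside 2.65% of genes: *Phgr1*, with a log2 difference of -3.52 ± 1.30 (SE), and *Prss30*, with -0.75 ± 0.28 (SE), both at an adjusted p = 0.9997 (limma). Since the 9 were picked with levels of these same mice known, the counts in this paragraph are a description and lend no support to a genotype difference. Without knockout-labelled mouse 1, the near-0 one, *Phgr1* differed by -2.22. *Prss30* ranged from -1.04 without control 2 to -0.42 without control 3. The count of 2 fell to 0 with array quality weights or without control 1 or 3, fell to 1 with a pseudocount of 0.1, with the replicate block or without knockout-labelled mouse 1, 3 or 4, and rose to 4 without control 2 or knockout-labelled mouse 2. *Phgr1* was lower in each of the 4 knockout-labelled mice than in each of the 3 controls, as were 1.55% of all genes, and for the other 8 the genotypes overlapped. In the companion lists 0 genes passed in either direction, and of 49 absorptive colonocyte genes tested 5 had an unadjusted p under 0.05, with a median difference of -0.27.

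Of the 9 estimates after DSS 8 were below 0, *Clca4a* being at 0.0064, and the median was -0.31, beside 0.02 over all genes. *Clca4a* came out below 0 with median-of-ratios scaling, and *2010109I03Rik* above 0 with epithelial scaling. *Guca2a* differed by -0.60, with a 95% interval from -1.39 to 0.19, and ranged from -0.93 without control 2 to -0.35 without control 3. *Sectm1b* (-0.45), *Ceacam20* (-0.31), *Guca2b* (-0.27) and *Slc15a1* (-0.21) had intervals that likewise held 0. With 3 and 4 mice these intervals are wide, and equal levels are not shown.

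In water, none of the 9 (0) passed an adjusted p of 0.05 between genotypes by limma, beside 0.00905% of 11046 genes (1 gene, *Dus2*, named after its value was seen), and 0 passed an unadjusted p of 0.05, beside 5.28%. The median estimate was -0.07, beside 0.0015 over all genes. *Guca2b* was at 0.47 ± 0.22 (SE; 95% interval -0.03 to 0.96), and *Phgr1* at 2.70 ± 1.36 (SE), with the near-0 control among its values and 0.98 without it. The count at an unadjusted p of 0.05 rose to 1 for *Guca2b* with array quality weights and without control 4 or knockout-labelled mouse 4 or 5, and for *Phgr1* with the replicate block and without control 1 or 2. The 7 other estimates lay between -0.22 for *Clca4a* and 0.24 for *2010109I03Rik*.

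**Figure D5:**
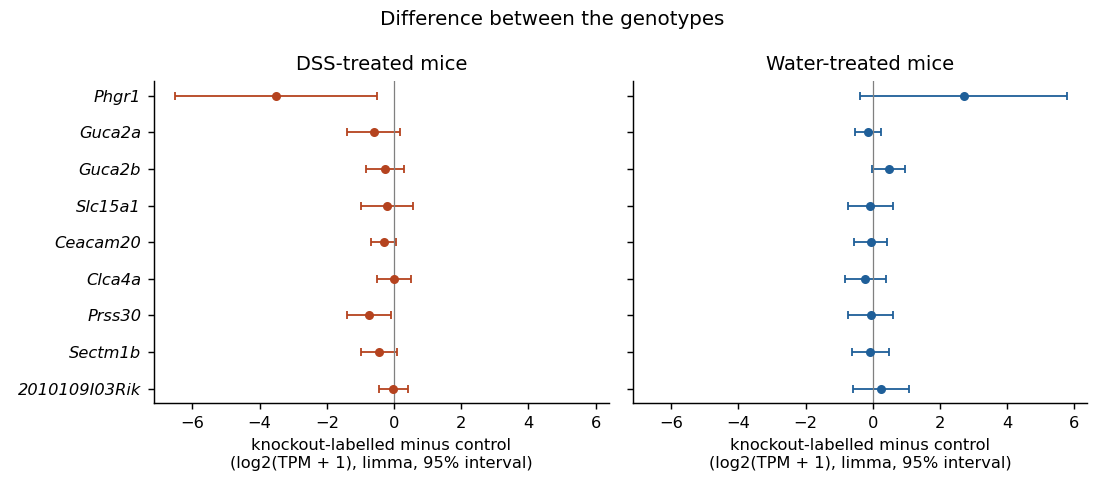
Difference between knockout-labelled and control mice for each of the 9 genes, as log2(TPM + 1) from limma with its 95% interval, after DSS (3 and 4 mice) and in water (4 and 5 mice). After DSS the intervals of *Phgr1* and *Prss30* lie below 0 and the others hold 0, and in water all 9 hold 0. The intervals are not adjusted for the number of genes, and both genes had an adjusted p = 0.9997 (limma). The 9 genes were picked with levels of these mice known.

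Between the cages in water, which are also the sexes, none of the 9 (0) passed an adjusted p of 0.05 by limma with genotype as a covariate, beside 0.0362% of 11046 genes. The 4 genes that passed, named after their values were seen, were *Ddx3y*, *Eif2s3y*, *E2f5* and *Gm26992*. At an unadjusted p of 0.05 there were 0 of the 9, beside 6.83% of genes, and 1 without control 1 (*Slc15a1*) or knockout-labelled mouse 4 (*2010109I03Rik*). All 9 estimates were higher in the male cage, with a median of 0.20 (-0.0015 over all genes), except that *Ceacam20* came out lower with epithelial scaling and with array quality weights. *2010109I03Rik* had the lowest adjusted p (0.756), with 0.63 ± 0.33 (SE), and ranged from 49.6 to 84.4 TPM in males and from 22.3 to 79.9 in females. With DSS-treated mice set against water-treated females alone, chosen after seeing the data because all DSS-treated mice were female, 5 of the 9 genes were below water among controls. That set 3 DSS-treated controls against 2 water-treated ones, and such small groups separate more easily than larger ones. The share of all genes is not given for it, so no conclusion is drawn from this count.

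Within groups the genes varied together to different degrees. Deviations from the group mean of log2(rescaled TPM + 1) were correlated over the 16 mice, which describes these libraries only, since both genes of a pair come from the same library and share its scaling. Pearson's r was above 0 for 34 of 36 pairs, with a median of 0.47. It was highest for *Slc15a1* with *Sectm1b* (0.88) and *Clca4a* with *2010109I03Rik* (0.86). *Guca2a* and *Guca2b*, though neighbours, had 0.10.

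Of 4774 other genes with a mean of at least 10 rescaled TPM, those most like the mean deviation of the 9 genes over the 16 mice were *Sprr2a1* (r = 0.93), *Dhrs7b* (0.86), *Sprr2a3* (0.86), *Cdhr5* (0.85), *Ces2a* (0.85), *Cda* (0.83), *Cul4a* (0.80) and *Dpep1* (0.80). *Cdhr5* encodes a protocadherin that links microvilli, *Ces2a* a carboxylesterase, *Cda* cytidine deaminase and *Dpep1* a dipeptidase. Without *Phgr1*, a choice made after seeing its near-0 values, *Sprr2a1* (0.92), *Sprr2a3* (0.92), *Prdx6* (0.87), *Cdhr5* (0.82) and *Saa1* (0.82) led. *Dhrs7b* and *Cul4a* were then no longer among the 8 highest.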

How the data were processed

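RNA of sorted EpCAM+ cells was sequenced from 16 mice in 4 groups, as single reads of 75 bases. The authors quantified transcripts with kallisto and deposited TPM per transcript and mouse in 2 tables, 1 per treatment, scaled separately. The submitters' processing notes name kallisto, sleuth and mm10. The transcript release is not given in the sources used here. Only principal isoforms were listed, which leaves reads of other isoforms out of a gene's value. Columns with the authors' test statistics, p-values, q-values and log2 ratios were not used. No column of another sample was present.

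From the deposited TPM, 385 repeated lines of 29373 per table were dropped, and the TPM of all listed transcripts with a gene symbol were added up. Gene positions are from GENCODE M21 on GRCm38, where all 28988 transcripts were found with the version ignored. The 31-base stretches of the listed transcripts were compared with all transcripts there. Genotype within a treatment, and cage with sex in water, were tested on log2(TPM + 1) by limma (version 3.58.1, R version 4.3.3) using its variance trend. Genes averaging at least 1 TPM entered, and p-values were adjusted over all of them by Benjamini-Hochberg. The fit was also run on simulated data. Its outcome is not given here, so the share of true changes found with so few mice is not stated. A pseudocount of 1 understates the change of low genes. No count model was run, since TPM hold no counts, and the depth of each value is unknown. Each p-value weighs a group difference against the spread between these mice, which limma estimates partly from other genes. Mice that shared a cage were treated as independent.

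Across treatments, levels were set on 1 scale by median-of-ratios factors over 9936 genes (0.905 to 0.940 in water, 1.13 to 1.24 after DSS), without a test. TPM of a mouse summed to between 487469 and 861109. The 9 genes and all lists were chosen with earlier results of these data known. Named beside the 9 were *Tnfrsf1b*, *Gucy2c*, *Ptprh*, up to 4 genes of each list with the highest mean rescaled TPM over the 16 mice (at least 10, or else the highest gene), and the 8 genes most like the 9. Replicate numbers of the labels mark different mice. Tables were handled by pandas 2.3.3 and numpy 2.4.6 under Python 3.11.15, and plots made by matplotlib 3.10.9.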

Additional observations from a re-analysis of the deposited data

Results flagged for a closer look

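Of 27 sets of mice checked (9 genes in the 3 groups with at least 4 mice, on log2(TPM + 1)), 3 held a mouse whose gap to the next was too large a share of the group's range by Dixon's 95% limit, which chance alone exceeds in about 1 in 20 sets. *Phgr1* was listed at 0.00502 TPM in water-treated control 2, while the other 3 mice of its group had at least 97.5 TPM, and the gap took 0.919 of the range. *Phgr1* was listed at 0.000201 TPM in DSS-treated knockout-labelled mouse 1, while the other 3 had at least 33.1 TPM, with a gap of 0.944 of the range. *Clca4a* stood at 47.6 TPM in water-treated knockout-labelled mouse 4, above 24.6 to 28.1 TPM in the other 4, with a gap of 0.799 of the range. Groups of 3 mice were not checked. Why these mice stood apart was not tested.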

How the results depend on the processing

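In none of the alternatives run (0 calls in each) did a gene of the 9 pass an adjusted p of 0.05 between genotypes or cages.

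Over all genes, the call between genotypes after DSS was lost with a pseudocount of 0.1, without a filter and with a replicate block (0 genes each), and leaving out a mouse gave 0 to 3. In water it was lost with a pseudocount of 0.1, with a mean of at least 5 TPM and with the replicate block (0 each), 4 genes were called without a filter and 2 after quantile normalization, and leaving out a mouse gave 1 to 2. For cage and sex it gave 3 to 7, the highest without water-treated knockout-labelled mouse 3. Same-numbered mice shared only a number: their deviations correlated between -0.20 and 0.09 over genes.

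Among controls, 1 of the 9 genes was below water in TPM as deposited, beside 8.25% of all genes. The count was 5 against the 2 water-treated female controls alone. It was 3 to 5 when a mouse was left out, with 5 without water-treated control 1. Among knockout-labelled mice it was 6 to 7 with a mouse left out, and 5 with epithelial scaling (beside 14.7% of all genes). It was 4 in TPM as deposited (beside 10.1%) and by percentile rank (beside 13.7%). Over all mice it was 1 in TPM as deposited (beside 4.16%) and 1 by percentile rank (beside 5.73%), and 3 to 4 with a mouse left out. Groups with fewer mice separate more easily, and no share of all genes is given for the counts with mice left out or females alone. The median difference of the 9 was -0.73 to -0.45 in controls and -1.41 to -1.12 in knockout-labelled mice with a mouse left out. In TPM as deposited it was -0.26 in controls and -0.88 in knockout-labelled mice, and by rank -0.64 and -4.99 percentile points. The cause of these changes was not tested.

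Estimates near 0 changed sign. After DSS these were *Clca4a* (-0.0004 with median-of-ratios scaling, -0.083 with array weights, -0.046 with the replicate block, -0.032 with cage as a covariate, -0.15 to 0.25 with a mouse left out), *2010109I03Rik* (0.011 with epithelial scaling, 0.0087 with the block, -0.16 to 0.21) and *Slc15a1* (-0.53 to 0.0069). In water these were *Slc15a1* (0.0096 with weights, 0.0015 with the block, -0.30 to 0.18), *Ceacam20* (0.019 with weights, -0.19 to 0.077), *Prss30* (0.045 with the block, -0.24 to 0.11), *Clca4a* (-0.41 to 0.028), *Sectm1b* (-0.22 to 0.10) and *2010109I03Rik* (-0.080 to 0.55). Between cages these were *Ceacam20* (-0.078 with epithelial scaling, -0.028 with weights, -0.080 to 0.21), *Phgr1* (-0.30 to 2.14), *Clca4a* (-0.032 to 0.38) and *Prss30* (-0.0083 to 0.36).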
